A study of Mus musculus with 8 samples.

Results

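Among the 2783 contigs in the table of reads mapped per reference sequence, 12 were named for a repeat element and the other contigs for Ensembl transcripts. A contig was taken as a repeat element when its name did not begin with ENSMUST, and no measured value entered the choice. The 12 contigs held 1190 of 621202 reads (0.192%). By their names, 8 were long terminal repeat (LTR) elements with 632 reads and 4 were LINE elements with 558 reads. Each name carried a suffix (dup and a number), which numbers single copies of a repeat family in the genome, so the reads were those given to 1 copy and not to a whole family.

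Nanopore direct RNA sequencing of polyadenylated RNA, extracted from the whole testes of adult males, read each molecule singly and also gave the length of the poly(A) tail of each read. The mice carried Tent5c wt/wt, or Tent5c dcat/dcat, in which both copies throughout the body encode a catalytically dead form of the cytoplasmic poly(A) polymerase TENT5C. They received vehicle (dimethyl sulfoxide in water) or a single injection of busulfan at 20 mg/kg, an alkylating drug that depletes germ cells, and testes were collected 4 weeks later. The 4 groups, called vehicle wt, busulfan wt, vehicle dcat and busulfan dcat below, had 2 mice each, with 1 library per mouse and 29574 to 129074 reads per library.

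Retroelements copy themselves through an RNA intermediate. LTR elements descend from retroviruses that entered the germ line, and LINE elements are retroelements without terminal repeats that encode their own reverse transcriptase. Most copies are truncated, and a copy inside a gene is read as part of that gene's RNA, so a read on a repeat contig need not come from the repeat's own promoter. Male germ cells hold retroelements down with small RNAs bound to PIWI proteins, with DNA methylation and with repressive chromatin, and some retroelements are nevertheless transcribed during meiosis and in spermatids.

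The LTR contigs covered several families. ERVB4_1B-LTR_MM_dup85 is a copy of a mouse ERVK repeat, and MURVY-LTR_dup1698 and RLTR6_Mm_dup166 are mouse ERV1 repeats, the first of a family known for its many copies on the Y chromosome. RLTR21_dup1451 and RMER4B_dup2832 belong to families spread through rodents. MLT1A1_dup1817, MLT1A1_dup7860 and MLT1G3_dup736 belong to the MaLR group, which is old and shared by many mammals. Of the LINE contigs, L1Md_F3_dup2030 is a mouse L1, Lx3B_dup3459 a rodent L1, and L1MD2_dup745 and L2_dup12450 belong to families shared across mammals. By this background, 5 contigs were of families shared by mammals, 3 of rodent and 4 of mouse families. The length, position and host gene of these copies were not used here, so levels were compared between libraries and not between contigs.

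To be kept in the table, a contig needed 10 or more reads in each of the 2 libraries of some group, and 0 contigs failed this. Only Lx3B_dup3459 met it in all 4 groups. The condition was met only in busulfan wt by 4 contigs (ERVB4_1B-LTR_MM_dup85, RLTR21_dup1451, RLTR6_Mm_dup166 and RMER4B_dup2832) and only in vehicle wt by 4 others (L2_dup12450, MLT1A1_dup1817, MLT1A1_dup7860 and MURVY-LTR_dup1698). L1Md_F3_dup2030 met it only in vehicle dcat, and L1MD2_dup745 and MLT1G3_dup736 met it in both vehicle groups. A contig kept through the group in which it is high tends to differ in a comparison that uses that group, so counts of such contigs describe the table and are not evidence about repeats at large.

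The reads of L2_dup12450 had a second entry each. All 73 of them stood in the tail table under the same read name, library and tail length as a read of a Dynll2 transcript. Dynll2 encodes dynein light chain LC8-type 2, a small hub protein of dynein and myosin V motors. Of the 1117 reads of the other 11 contigs, 0 shared a read name with another contig. None of the 1190 reads carried a gene symbol or a chromosome.

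The Dynll2 gene lies on the minus strand of chromosome 11 (GRCm38). Its transcripts ENSMUST00000178105, ENSMUST00000107923 and ENSMUST00000020775 begin at base 87984012, 87986585 and 87987533 and share a last exon of 2046 bases at chr11:87979525-87981570, of which 1911 bases at 87979525 to 87981435 are 3′ UTR in GENCODE vM21. The first of these transcripts has 2 exons and the other two have 3. Of the shared reads, 37 were also under ENSMUST00000178105 (23.7% of its 156 reads), 33 under ENSMUST00000107923 (19.9% of 166) and 3 under ENSMUST00000020775 (1.89% of 159). Where L2_dup12450 lies within or near Dynll2 was not determined.

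Reads listed under both names made up 15.2% of the 481 Dynll2 reads. In vehicle wt the shares were 13 of 47 reads (27.7%, 95% Wilson interval 16.9% to 41.8%) and 18 of 87 (20.7%, 13.5% to 30.4%). In busulfan wt they were 0 of 22 and 0 of 49, which allow a share of up to 13.6% and 6.12%. In vehicle dcat they were 2 of 27 (7.41%) and 31 of 169 (18.3%), and in busulfan dcat 2 of 29 (6.90%) and 7 of 51 (13.7%). The shares of vehicle wt and busulfan wt did not overlap, those of the dcat groups did, and with 2 libraries against 2 an exact permutation test cannot go below p = 0.333. The shared reads had a mean tail of 147 nucleotides (nt) and the other Dynll2 reads one of 135 nt. All intervals and limits on shares given here cover counting error only.

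**Figure D1:**
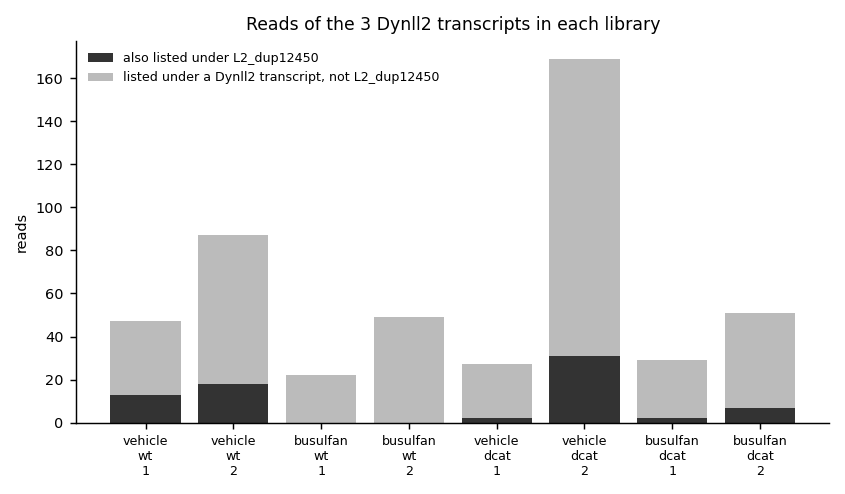
Reads of the 3 Dynll2 transcripts in each of the 8 libraries (number of reads), with the part that is also listed under L2_dup12450 in dark grey. The dark part is 13 and 18 reads in vehicle wt and 0 in both busulfan wt libraries.

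Reads on the repeat contigs were a smaller part of the library after busulfan in both genotypes. They made up 0.211% and 0.279% of reads in vehicle wt (mean 0.245% ± 0.0480, SD, n = 2), and 0.177% and 0.117% in busulfan wt (0.147% ± 0.0425). They made up 0.338% and 0.245% in vehicle dcat (0.291% ± 0.0660), and 0.137% and 0.134% in busulfan dcat (0.136% ± 0.00155). Within each genotype the vehicle libraries lay above the busulfan libraries, and the genotypes overlapped after vehicle. The smallest p that an exact permutation test allows here is 0.333, so these shares were not tested. More of the contigs were kept only through vehicle groups than only through busulfan wt. The way contigs were kept thus favours a larger share after vehicle, and these shares describe the table. Lx3B_dup3459 supplied 345 of the 1190 reads (29.0%), from 13.1% to 48.0% of the repeat reads of a library.

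**Figure D2:**
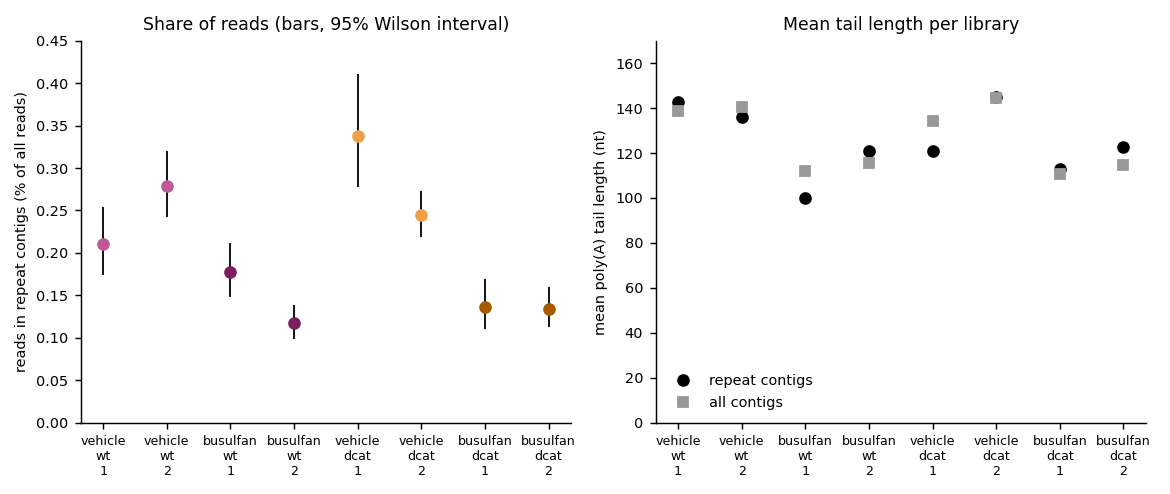
Left, reads in the 12 repeat contigs as a percentage of all reads of each library, with 95% Wilson intervals; right, mean poly(A) tail length (nt) of those reads and of all reads. Shares are 0.211% to 0.338% in the vehicle libraries and 0.117% to 0.177% in the busulfan libraries, and mean tails of repeat reads differ from the library mean by at most 13.4 nt.

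After busulfan repeat contigs moved in both directions, in a table most of which moved: 73.8% of all contigs passed in wt and 62.7% in dcat. In wt testes 4 of 12 contigs rose and 6 fell at an adjusted p under 0.05 (edgeR quasi-likelihood test, Benjamini-Hochberg adjustment over 2783 contigs). Across all contigs 35.4% rose and 38.3% fell in the same comparison. In dcat testes 3 contigs rose and 6 fell, against 31.3% and 31.4% of all contigs. The median log2 fold change of the 12 contigs was -0.94 in wt and -1.26 in dcat, beside 0.09 and 0.14 over all contigs. More of the 12 were kept only through vehicle groups than only through busulfan wt, which favours a lower median. All 12 contigs had the same sign in both genotypes, and 7 passed the threshold in both. The share of all contigs that did so was not counted, so neither count is a trait particular to repeat contigs. DESeq2 called 1 contig higher and 5 lower in each genotype, and 59.6% of all contigs in wt and 39.3% in dcat. In wt the counts dropped to 2 higher and 4 lower without vehicle replicate 2. In dcat they dropped to 0 higher and 3 lower without vehicle replicate 2, and to 3 higher and 2 lower without busulfan replicate 1. In whole testes a smaller number of cells of a type and less RNA per cell cannot be told apart.

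All 4 contigs that rose in wt testes were LTR elements, and they were the 4 kept only through busulfan wt. By family range they were 2 mouse and 2 rodent elements. The 5 contigs of families shared by mammals all fell, and each had been kept only through vehicle groups. The way contigs were kept thus favours this split. That grouping was made with the values known and was not tested. Over all contigs 35.4% rose and 38.3% fell in wt. In dcat testes 4 of the 5 mammalian contigs fell, and the elements that rose were 1 mouse and 2 rodent LTR elements. All 4 LINE contigs fell in dcat testes, and 2 of the 4 fell in wt testes. Over all contigs 31.3% rose and 31.4% fell in dcat.

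ERVB4_1B-LTR_MM_dup85, the ERVK copy, was nearly unread after vehicle. It had 0 and 1 reads in vehicle wt and 10 and 17 in busulfan wt. It had 1 and 1 reads in vehicle dcat and 16 and 7 in busulfan dcat. The busulfan libraries lay above the vehicle libraries in both genotypes. The ratio of summed reads, scaled for library size, was 18.0 in wt (95% counting interval 2.96 to 736) and 11.6 in dcat (2.86 to 101). Its rise passed the test in wt (adjusted p = 0.00143) and in dcat (adjusted p = 0.00248, edgeR). In dcat the rise was lost without vehicle dcat replicate 2 (log2 fold change 2.21, adjusted p = 0.212).

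The rodent LTR copies RLTR21_dup1451 and RMER4B_dup2832 had like patterns. RLTR21_dup1451 had 0 and 3 reads in vehicle wt, 10 and 12 in busulfan wt, 1 and 2 in vehicle dcat, and 7 and 11 in busulfan dcat. Its busulfan over vehicle ratio was 4.88 in wt (counting interval 1.47 to 25.5, adjusted p = 0.0120, edgeR) and 6.04 in dcat (1.76 to 32.0, adjusted p = 0.00870). RMER4B_dup2832 had 1 and 1 reads in vehicle wt, 10 and 11 in busulfan wt, 1 and 0 in vehicle dcat, and 4 and 6 in busulfan dcat. Its ratio was 6.99 in wt (1.71 to 61.5, adjusted p = 0.00588, edgeR) and 10.1 in dcat (1.43 to 437, adjusted p = 0.0187). For both contigs every busulfan library was above every vehicle library. By DESeq2 neither passed, with adjusted p = 0.114 and 0.103 in wt. In dcat neither passed without vehicle replicate 2, where the log2 fold changes were 1.82 and 0.99. In wt RLTR21_dup1451 was lost without vehicle replicate 1 (1.67, adjusted p = 0.0967) and RMER4B_dup2832 without vehicle replicate 2 (2.75, adjusted p = 0.0721).

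RLTR6_Mm_dup166, the mouse ERV1 copy, had 6 and 1 reads in vehicle wt, 21 and 23 in busulfan wt, 1 and 4 in vehicle dcat, and 8 and 7 in busulfan dcat. Its level, in CPM (reads scaled to the library size after TMM), was 65.3 ± 72.1 (SD, n = 2) in vehicle wt and 246 ± 41.2 in busulfan wt. The rise in wt was 2.03 ± 0.62 on the log2 scale (SE, adjusted p = 0.00510, edgeR). In dcat the difference was 1.56 ± 0.79 and did not pass (adjusted p = 0.0879), although the groups did not overlap. In wt the call was lost by DESeq2 (adjusted p = 0.0862) and without vehicle wt replicate 2 (1.34, adjusted p = 0.0954), and without vehicle wt replicate 1 the rise was 4.16.

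The 4 contigs kept only through busulfan wt were also compared in dcat libraries, and 3 of the 4 rose there, beside 31.3% of all contigs. Of the 4 kept only through vehicle wt, 2 fell in dcat testes, beside 31.4% of all contigs. Both sets hold only contigs that missed the read minimum in both dcat groups. The dcat libraries thus helped to define these sets and give no independent check. All 4 contigs kept only through vehicle wt fell in wt, where the condition for being kept used the same libraries.

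**Figure D3:**
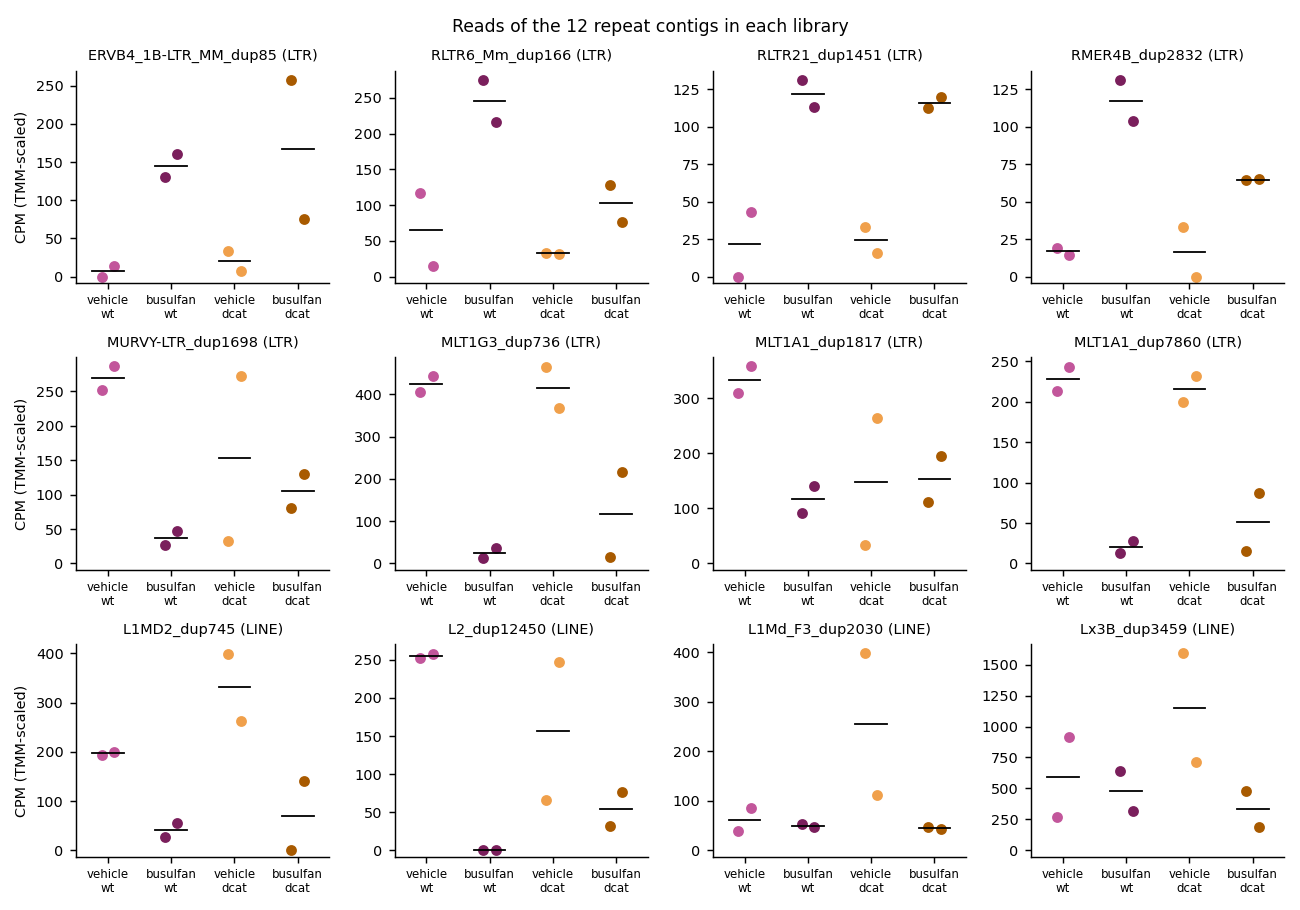
Level of each of the 12 repeat contigs (CPM, TMM-scaled) in the 2 libraries of each group, with the group mean as a line; vertical scales differ between contigs. The 4 LTR contigs of the top row are higher in every busulfan library than in the vehicle libraries of the same genotype, and MLT1A1_dup1817, MURVY-LTR_dup1698 and L2_dup12450 differ widely between the vehicle dcat libraries.

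MLT1G3_dup736 and MLT1A1_dup7860, copies of old MaLR elements, fell in both genotypes. MLT1G3_dup736 had 21 and 31 reads in vehicle wt and 1 and 4 in busulfan wt. Its level was 425 ± 25.8 CPM in vehicle wt and 25.4 ± 17.4 in busulfan wt. The fall was -3.89 ± 0.71 on the log2 scale in wt (adjusted p = 4.27e-05, edgeR). In vehicle dcat it had 14 and 46 reads and in busulfan dcat 1 and 20, a fall of -1.62 ± 0.57 (adjusted p = 0.0175, edgeR). The busulfan dcat libraries were far apart, at 16.1 and 217 CPM, and without replicate 1 of that group the difference was -0.88 and did not pass (adjusted p = 0.166), while without replicate 2 it was -4.50 (adjusted p = 0.000129). Without vehicle dcat replicate 2 it was -1.75 (adjusted p = 0.0580).

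MLT1A1_dup7860 had 11 and 17 reads in vehicle wt, 1 and 3 in busulfan wt, 6 and 29 in vehicle dcat, and 1 and 8 in busulfan dcat. The vehicle libraries lay above the busulfan libraries in both genotypes. It fell by 3.30 ± 0.69 on the log2 scale in wt (adjusted p = 0.000182, edgeR) and fell by 1.92 ± 0.59 in dcat (adjusted p = 0.00741). The call in dcat was lost without vehicle dcat replicate 2 and without busulfan dcat replicate 1, with log2 fold changes that stayed between -3.66 (without busulfan dcat replicate 2) and -1.34 over all alternatives.

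MLT1A1_dup1817, another copy of the MLT1A1 family, fell in wt and did not pass in dcat. It had 16 and 25 reads in vehicle wt and 7 and 15 in busulfan wt, a fall of -1.48 ± 0.54 on the log2 scale (adjusted p = 0.0161, edgeR). It did not pass by DESeq2 (adjusted p = 0.0560), nor without either vehicle replicate or without busulfan replicate 1, where the fall was between -1.38 and -1.11. In vehicle dcat it had 1 read in the first library and 33 in the second, and in busulfan dcat 7 and 18. The groups overlapped, and the difference was -0.30 ± 0.55 (adjusted p = 0.647).

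MURVY-LTR_dup1698 had 13 and 20 reads in vehicle wt and 2 and 5 in busulfan wt, a fall of -2.78 ± 0.66 on the log2 scale (adjusted p = 0.000661, edgeR). In vehicle dcat it had 1 and 34 reads and in busulfan dcat 5 and 12, with overlapping groups and a difference of -0.90 ± 0.57 (adjusted p = 0.175). Without vehicle dcat replicate 1 that difference passed as a fall (-1.30, adjusted p = 0.0273), and without replicate 2 its sign turned (1.73, adjusted p = 0.307).

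The vehicle dcat libraries thus parted on 3 contigs. The deeper library had 4.36 times the reads of the other, yet 33 against 1 reads of MLT1A1_dup1817, 34 against 1 of MURVY-LTR_dup1698 and 31 against 2 of L2_dup12450. In CPM these were ratios of 7.94, 8.18 and 3.73. For L1Md_F3_dup2030 and Lx3B_dup3459 the shallower library was the higher one, at 398 against 112 and 1593 against 711 CPM. The part of depth or of the mouse in these gaps was not tested.

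Among the LINE contigs, L1MD2_dup745 had 10 and 14 reads in vehicle wt, 2 and 6 in busulfan wt, 12 and 33 in vehicle dcat, and 0 and 13 in busulfan dcat. It fell by 2.14 ± 0.73 on the log2 scale in wt (adjusted p = 0.0111, edgeR) and fell by 1.89 ± 0.63 in dcat (adjusted p = 0.0124). The vehicle libraries were above the busulfan libraries in both genotypes. In wt the call was lost without either vehicle replicate and without busulfan replicate 1 (-1.97 to -1.77), and in dcat without busulfan replicate 1 (-1.10, adjusted p = 0.113). Without busulfan dcat replicate 2 the value was -7.51, fitted against the library with 0 reads.

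L2_dup12450 had 13 and 18 reads in vehicle wt and 0 in both busulfan wt libraries. Its level in vehicle wt, 255 CPM, was 7.54 times a floor of 3 reads per busulfan wt library. It passed as a fall in wt (adjusted p = 8.75e-06, edgeR). In vehicle dcat it had 2 and 31 reads and in busulfan dcat 2 and 7, a fall of -1.76 ± 0.61 (adjusted p = 0.0164) with overlapping groups. That fall did not pass by DESeq2 (adjusted p = 0.114), without vehicle dcat replicate 2 (-0.12) or without busulfan dcat replicate 1 (-1.38). Since these reads are also those of Dynll2, the transcripts of that gene were set beside it. Their counts include the shared reads, so their falls are not independent of that of L2_dup12450. In vehicle wt these were 7 of 22 and 10 of 39 reads of ENSMUST00000107923, and 5 of 13 and 8 of 30 of ENSMUST00000178105. A fit without the shared reads was not run. ENSMUST00000107923 fell by 2.41 ± 0.49 in wt (adjusted p = 0.000129, edgeR) and fell by 1.32 ± 0.47 in dcat (adjusted p = 0.0187). ENSMUST00000178105 fell by 2.13 ± 0.53 in wt (adjusted p = 0.00102, edgeR) and fell by 1.34 ± 0.47 in dcat (adjusted p = 0.0169). ENSMUST00000020775, which held 3 of the 73 shared reads, had differences of -0.21 and -0.94 that did not pass (adjusted p = 0.708 and 0.0992, edgeR).

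L1Md_F3_dup2030, the mouse L1 copy, had 2 and 6 reads in vehicle wt, 4 and 5 in busulfan wt, 12 and 14 in vehicle dcat, and 3 and 4 in busulfan dcat. It fell by 1.95 ± 0.66 on the log2 scale in dcat (adjusted p = 0.0143, edgeR), where it had been kept through the vehicle group. The call was lost without vehicle replicate 1 (-1.27, adjusted p = 0.120) and without busulfan replicate 2 (-1.86, adjusted p = 0.0512), and without vehicle replicate 2 the fall was -3.02. In wt the difference was -0.40 ± 0.80 (adjusted p = 0.660).

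Lx3B_dup3459, the contig with the most reads, had 14 and 64 reads in vehicle wt, 49 and 34 in busulfan wt, 48 and 89 in vehicle dcat, and 30 and 17 in busulfan dcat. Its wt groups overlapped, at 593 ± 455 CPM after vehicle and 481 ± 227 after busulfan, and the difference was -0.37 ± 0.51 (adjusted p = 0.523, edgeR). In dcat its level was 1152 ± 624 CPM after vehicle and 333 ± 210 after busulfan, and it fell by 1.75 ± 0.53 on the log2 scale (adjusted p = 0.00713). Without vehicle dcat replicate 1 the fall was -1.13 (adjusted p = 0.0631), and without busulfan dcat replicate 2 it was -1.15 (adjusted p = 0.0495).

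**Figure D4:**
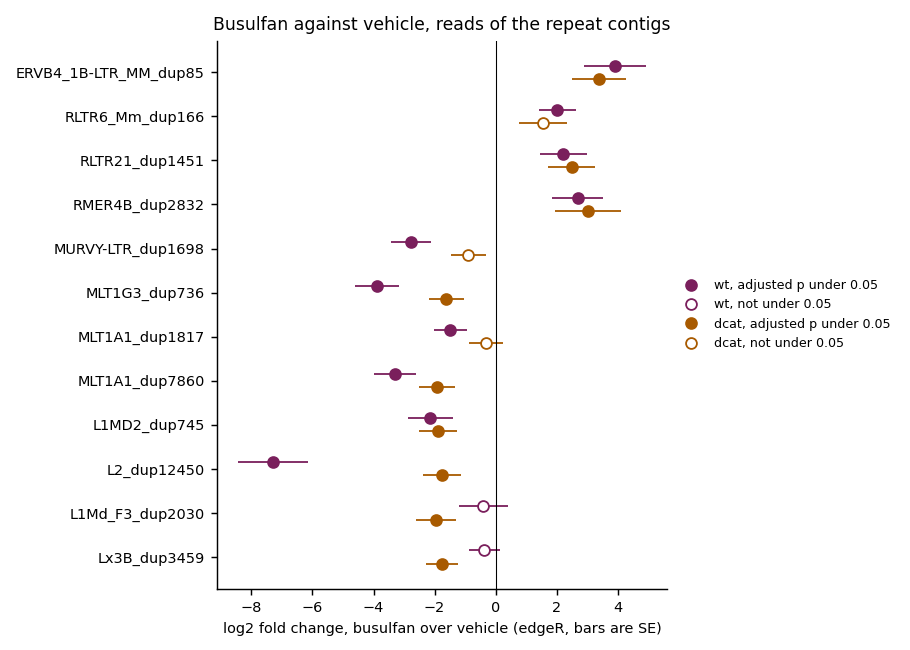
Log2 fold change of reads, busulfan over vehicle, for each repeat contig in wt and dcat testes (edgeR estimate, bars are SE); filled points have an adjusted p under 0.05. The 4 LTR contigs at the top lie above 0 and the other 8 contigs below 0 in both genotypes; the wt point of L2_dup12450 is a fitted value against libraries with 0 reads and is no measure of size.

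Between genotypes few repeat contigs differed. After vehicle, 0 of the 12 contigs and 0% of all contigs passed (edgeR), 1 of the 12 and 65 of 2783 had an unadjusted p under 0.05, and DESeq2 called 0. The 1 contig was L1Md_F3_dup2030, at 255 ± 203 CPM in vehicle dcat and 62.3 ± 33.3 in vehicle wt. Its difference was 1.43 ± 0.65 on the log2 scale (adjusted p = 1, edgeR), with both dcat libraries above both wt libraries.

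After busulfan, 1 of 12 contigs passed, against 5.82% of all contigs. It was L2_dup12450 (adjusted p = 0.0475, edgeR), with 0 reads in both wt libraries and 2 and 7 in the dcat libraries. The dcat mean was 54.1 CPM, 1.60 times the mean of a floor of 3 reads in each wt library (33.8 CPM). Busulfan dcat replicate 1 was at 32.1 CPM, below that floor, so no least fold is given for L2_dup12450. Its adjusted p lay between 0.00955 and 0.540 over the alternatives and missed the threshold in 8 of the 12. MLT1G3_dup736 had 16.1 and 217 CPM in busulfan dcat against 13.1 and 37.7 in busulfan wt, a difference of 2.19 ± 0.82 (adjusted p = 0.115, edgeR), and it passed without busulfan dcat replicate 1 (2.93, adjusted p = 0.00303). RLTR6_Mm_dup166 went the other way, at 102 ± 37.0 CPM in busulfan dcat and 246 ± 41.2 in busulfan wt. Its difference was -1.29 ± 0.52 (adjusted p = 0.150, edgeR), and it passed where only the 4 busulfan libraries were fitted (-1.46, adjusted p = 0.0442).

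Whether the busulfan effect differed between the genotypes was tested as an interaction, which 0 of 12 contigs passed, against 0.323% of all contigs (edgeR). An unadjusted p under 0.05 (edgeR) was found for 3 repeat contigs, L2_dup12450, MLT1G3_dup736 and MURVY-LTR_dup1698, and for 451 of all 2783 contigs. DESeq2 called 0 of the 2 repeat contigs that it gave an adjusted p. All 3 had a smaller fall in dcat, with interaction values of 5.54, 2.28 and 1.88 on the log2 scale (adjusted p = 0.0670, 0.232 and 0.305). With the replicate number as a block, L2_dup12450 passed (adjusted p = 0.0363), in a fit that called 4.42% of all contigs. With 1 library left out, the values were 4.68 to 6.93 for L2_dup12450, -0.61 to 3.23 for MLT1G3_dup736 and 1.26 to 4.28 for MURVY-LTR_dup1698. In the same comparison 5 of 8 late spermatid genes passed, of 9 contigs called in all, and the median over the 8 was 2.75. They were Prm1, Prm2, Tnp1, Tnp2 and Gapdhs, all with a smaller fall in dcat. The others did not pass, with values of 2.22 for Akap4, 0.17 for Smcp and -0.76 for Odf1. Odf1 thus had the larger fall in dcat. The part of late spermatids in the values of the repeat contigs was not tested. The value for L2_dup12450 is fitted against libraries with 0 reads.

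Markers of germ cells and somatic cells moved with busulfan in the same libraries. The summed level of 8 late spermatid genes (Prm1, Prm2, Tnp1, Tnp2, Odf1, Smcp, Gapdhs and Akap4, all read) was 89538 to 112215 CPM (here without TMM scaling) after vehicle, 7645 and 9920 in busulfan wt, and 19697 and 35729 in busulfan dcat. After busulfan 5 of the 8 genes were higher in dcat than in wt (edgeR), and after vehicle 0 differed. The others did not pass after busulfan, with log2 differences of 1.87 for Akap4, -0.29 for Smcp and -0.97 for Odf1. In busulfan against vehicle, all 8 fell in wt and 7 in dcat, beside the shares of all contigs given above. Smcp did not pass in dcat (-0.65, adjusted p = 0.103, edgeR). Prm1, the protamine of sperm chromatin, fell by 5.08 ± 0.50 on the log2 scale in wt and fell by 2.13 ± 0.43 in dcat (adjusted p = 5.44e-08 and 0.000378, edgeR). Of 6 spermatocyte genes 4 were read, at 10068 to 12434 CPM after vehicle and 833 to 3164 after busulfan. All 4 fell in wt and 3 in dcat, where Sycp3 did not pass (-0.24, adjusted p = 0.700, edgeR). These sums weigh genes by their reads, so genes with few reads count little in them. The Leydig list (6 of 6 read) was at 3316 to 6323 CPM after vehicle and 20455 to 44990 after busulfan, and Insl3, a Leydig cell hormone, rose by 3.01 ± 0.35 in wt and 2.12 ± 0.34 in dcat (adjusted p = 2.28e-07 and 6.11e-05). The Sertoli list (5 of 7 read) was at 2154 to 4430 CPM after vehicle and 15677 to 26358 after busulfan, and the macrophage list (4 of 7 read) at 170 to 406 and 1748 to 2590. The erythroid list (2 of 5 read) was at 177 and 291 CPM in vehicle wt and at 135 and 15.5 in vehicle dcat. It was at 771 and 924 CPM in busulfan wt and at 0 and 20.7 in busulfan dcat. The part of these cell types in the repeat reads was not tested.

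Genes that act on retroelements were set beside the contigs. Of a list of 35 such genes, 6 were in the table. They were Mael, Tdrd6, Tdrd7, Ddx4 and Gtsf1, proteins of the PIWI pathway and of germ cell granules, and Trim28, a corepressor that brings repressive chromatin to LTR elements. After busulfan 6 of 6 fell in wt and 4 of 6 in dcat (edgeR), and 0 rose in either, beside the shares of all contigs given above. Mael had 58 and 57 reads in vehicle wt and 7 and 8 in busulfan wt, a fall of -3.52 ± 0.51 on the log2 scale (adjusted p = 3.05e-06, edgeR), and fell by 2.15 ± 0.46 in dcat (adjusted p = 0.000589). Gtsf1 had 26 and 39 reads in vehicle wt, 1 and 2 in busulfan wt, 11 and 74 in vehicle dcat, and 2 and 21 in busulfan dcat, and it was the 1 gene of the list higher in dcat than in wt after busulfan (adjusted p = 0.0391, edgeR). Tdrd6 and Tdrd7 fell in both genotypes. Ddx4 and Trim28 fell in wt by 2.57 ± 0.61 and 1.48 ± 0.54, and in dcat their differences were -1.07 ± 0.52 and -0.93 ± 0.53 (adjusted p = 0.0773 and 0.129, edgeR).

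The mean tail of the repeat reads differed from that of all reads of the same library by 0.635 to 13.4 nt, above it in 5 libraries and below it in 3. The mean over repeat reads was 143 and 136 nt in vehicle wt, 100 and 121 in busulfan wt, 121 and 145 in vehicle dcat, and 113 and 123 in busulfan dcat. Over all reads the library means were 139 and 141, 112 and 115, 134 and 144, and 111 and 115 nt in the same order. Group means of repeat reads were 139.6 ± 4.71 nt (SD, n = 2) in vehicle wt, 110.4 ± 14.7 in busulfan wt, 133 ± 17.0 in vehicle dcat and 118 ± 6.82 in busulfan dcat. The wt groups did not overlap and the dcat groups did.

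Long tails were a smaller part of the repeat reads after busulfan in both genotypes, as they were of all reads, and the vehicle and busulfan libraries of a genotype did not overlap, though in dcat the nearest were at 41.0% and 40.0%. Tails of 120 to 210 nt made up 52.3% ± 0.0690 of repeat reads in vehicle wt and 31.0% ± 6.41 in busulfan wt, and 49.1% ± 11.5 in vehicle dcat and 33.7% ± 8.92 in busulfan dcat. Over all reads the same shares were 53.7% ± 0.0422, 31.3% ± 0.770, 52.6% ± 4.03 and 32.6% ± 3.88. The repeat contigs differ in reads between the groups, so these pooled values mix a change in tails with a change in which contigs were read.

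A test of tails needed 10 reads of a contig in each of 4 libraries, which Lx3B_dup3459 met in all comparisons. Its mean tail was 84.4 and 122 nt in vehicle wt and 79.5 and 100 in busulfan wt, with overlapping groups and a difference of -13.2 ± 12.4 nt (SE, adjusted p = 0.434, limma), against 39.7% of 527 contigs called. In dcat its mean tail was 116 and 130 nt after vehicle and 76.8 and 84.7 after busulfan. This was a shortening of -42.2 ± 11.7 nt (adjusted p = 0.0321, limma), against 19.5% of 441 contigs called and a median of -17.2 nt over them. With each library centred on the median over its tested contigs the difference was -19.5 nt and did not pass (adjusted p = 0.278, limma). It did not pass with medians in place of means either (adjusted p = 0.0686, limma). The call was also lost without vehicle replicate 2 (-35.3 nt) and without busulfan replicate 1 (-38.3 nt). The median tail of its reads was 123 nt in vehicle dcat (137 reads) and 65.1 nt in busulfan dcat (47 reads), and 106 and 74.3 nt in the wt groups (78 and 83 reads).

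Between genotypes no tail of a repeat contig differed by this test. After vehicle the differences, dcat less wt, were 20.0 ± 10.8 nt for Lx3B_dup3459, -6.80 nt for L1MD2_dup745 and -4.23 nt for MLT1G3_dup736 (adjusted p = 0.989 for each, limma), and 0.139% of 720 contigs were called. The unadjusted p was under 0.05 for 0 of the 3. After busulfan Lx3B_dup3459 differed by -9.06 ± 11.1 nt (adjusted p = 0.926, limma), against 1.35% of 1188 contigs called.

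MLT1A1_dup1817 showed the widest gap between group medians among contigs with 10 or more reads in both groups. Its mean tail was 161 and 156 nt in vehicle wt (16 and 25 reads), and 53.1 and 65.1 nt in busulfan wt (7 and 15 reads). In vehicle dcat the single read of the first library had 136 nt and the 33 of the second a mean of 163 nt. In busulfan dcat the means were 65.0 and 90.8 nt (7 and 18 reads). In busulfan wt 17 of its 22 reads had tails of 30 to 120 nt, against 9 of 41 in vehicle wt. In busulfan dcat 20 of 25 did, against 6 of 34 in vehicle dcat. With a minimum of 5 reads per library it could be tested in wt, and its tail was shorter by -99.3 ± 14.7 nt after busulfan (adjusted p = 0.000941, limma). In the dcat comparison the single read of vehicle dcat replicate 1 kept it from a test.

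MURVY-LTR_dup1698 had means of 188 and 183 nt in vehicle wt (13 and 20 reads), and 124 and 96.9 nt in busulfan wt (2 and 5 reads). In vehicle dcat it had 1 read of 225 nt and 34 reads with a mean of 176 nt, and in busulfan dcat means of 101 and 138 nt (5 and 12 reads). Both busulfan groups lay below both vehicle groups, on few reads and with no test.

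Of contigs with 10 or more reads in both groups of a genotype, 2 of 2 in wt and 5 of 5 in dcat had a shorter median tail after busulfan. Over all contigs with as many reads, the median was shorter in 78.0% of 1341 in wt and in 81.1% of 1862 in dcat. The remaining repeat contigs had fewer than 10 reads in at least 1 of the groups. Of these, 5 had a shorter and 4 a longer median after busulfan in wt, where L2_dup12450 had no reads, and 2 had a shorter and 5 a longer one in dcat. The tails of the LTR contigs that rose were not tested against each other. The mean tails of ERVB4_1B-LTR_MM_dup85 and RLTR21_dup1451 lay above the mean of all reads in each busulfan library. Those of RMER4B_dup2832 and RLTR6_Mm_dup166 did so in most busulfan libraries but not in all. ERVB4_1B-LTR_MM_dup85 had means of 160 and 163 nt in busulfan wt and 174 and 171 nt in busulfan dcat. RLTR21_dup1451 had 137 and 153 nt in busulfan wt and 129 and 139.6 nt in busulfan dcat. RMER4B_dup2832 had 136 and 130 nt in busulfan wt and 111 and 116 nt in busulfan dcat. RLTR6_Mm_dup166 had 90.6 and 129.5 nt in busulfan wt and 129.1 and 162 nt in busulfan dcat, and these groups overlapped. With a minimum of 5 reads per library the differences, dcat less wt, were 10.9 ± 16.7 nt for ERVB4_1B-LTR_MM_dup85, -10.7 ± 18.2 nt for RLTR21_dup1451 and 35.5 ± 17.9 nt for RLTR6_Mm_dup166 (adjusted p = 0.918, 0.926 and 0.664, limma).

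**Figure D5:**
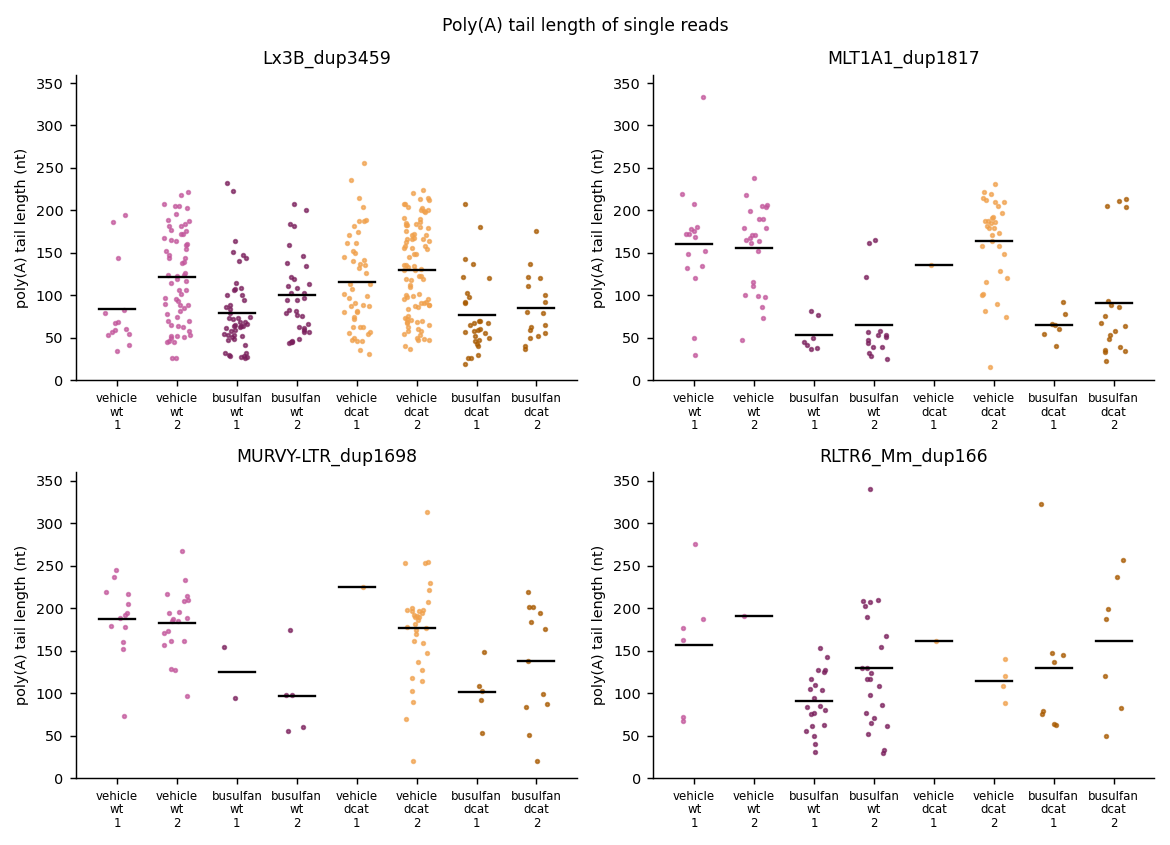
Poly(A) tail length (nt) of single reads of 4 repeat contigs in each of the 8 libraries, with the mean of the library as a line. Reads of MLT1A1_dup1817 centre at 156 to 163 nt in the vehicle libraries with more than 1 read and at 53.1 to 90.8 nt in the busulfan libraries; Lx3B_dup3459 has tails of both lengths in all libraries.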

How the data were processed

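Per the methods of the study, the authors basecalled with Guppy, aligned reads with Minimap2 to GENCODE vM17 genes (GRCm38), demultiplexed with Deeplexicon and estimated tails with Nanopolish. How repeat contigs entered the reference is not given in the sources used here, and the Minimap2 version is 2.20-r1061 per the labels but another in the methods. The deposited read counts per contig were raw, and the deposited tail lengths (nt per read) came from the authors' Nanopolish run. The authors' tables of log2 fold changes and adjusted p-values were not used.

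Reads of 8 libraries were fitted as 4 groups with edgeR 4.0.16 (TMM, quasi-likelihood F test) over 2783 contigs. The SE of an edgeR log2 fold change was worked back from the test, as its absolute value over the square root of F. Mean tail per contig and library was fitted with limma 3.58.1 (lmFit, eBayes with trend), for contigs with 10 or more reads in all 4 libraries compared. P-values were adjusted by Benjamini-Hochberg with a threshold of 0.05. R 4.3.3, DESeq2 1.42.0 and Python 3.11.15 were used, and the fits were checked on simulated data. In an exact counting interval of a ratio, reads of both groups were taken as binomial given their sum. Depth was 29574 to 129074 reads per library.

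Per the methods of the study, extracts of the same replicate number, 1 per group, were multiplexed together, so the numbers pair the samples. A library here means the reads of 1 mouse. The main fits held no term for this pairing, which the replicate block adds. Same-numbered libraries had correlations of deviations from -0.109 to 0.206 (median 0.0200). With 1 mouse per library, p-values measure the spread between mice and libraries together. Alternatives were DESeq2, RLE scaling, filterByExpr, the replicate block, the libraries of the contrast alone and each library left out, and for tails also medians, log2 lengths, centring, other read minimums, no trend and all libraries. Named were all repeat contigs, contigs that share read names with them, Prm1 and Insl3, and genes that act on retroelements where they passed. The members and lists were chosen with earlier results of these data known. Repeat classes were assigned from the contigs' names.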

Additional observations from a re-analysis of the deposited data

How the results depend on the processing

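Few reads limit these results: 11 of the 12 contigs had fewer than 10 reads in at least 1 library, and a group left with 1 library was assumed to vary like the others. Over 455 alternatives for 37 values of single contigs, 389 kept direction and side of the threshold, 43 lost the call, 8 gained it and 15 turned sign. In wt, ERVB4_1B-LTR_MM_dup85 stayed higher and L2_dup12450, MLT1A1_dup7860, MLT1G3_dup736 and MURVY-LTR_dup1698 stayed lower under all 13 alternatives; in dcat no called contig did. The number of contigs called for busulfan in wt was 10, with 6 by DESeq2 and 6 to 10 when 1 library was left out, and in dcat 9, with 6 by DESeq2, 6 by filterByExpr (which left 3 of the called contigs, L1Md_F3_dup2030, RLTR21_dup1451 and RMER4B_dup2832, out of the test) and 3 to 9 when 1 library was left out. For dcat against wt after busulfan it was 1, with 0 under RLE scaling and filterByExpr, 0 by DESeq2 (which gave L2_dup12450 no adjusted p) and 0 to 2 when 1 library was left out. For the interaction it was 0, with 1 with the replicate block and 0 to 3 when 1 library was left out. The block changed no other count of repeat contigs by over 1.5 times. Over all contigs the interaction called 9, with 123 with the block, 68 under RLE scaling and 36 with filterByExpr, and dcat against wt after busulfan 162, with 47 by DESeq2. TMM moved the median of all contigs to 0.14 in dcat against -0.08 under RLE scaling, which changed no sign of a called contig.

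Tails called for busulfan were 0 in wt, and 1 with at least 5 reads (MLT1A1_dup1817). In dcat 1 was called, and 0 with medians, centred libraries or at least 5 reads, and 0 to 1 when 1 library was left out. Without mitochondrial, protamine and transition protein reads the repeat share in busulfan dcat was 0.164%, and without L2_dup12450, an alternative added after seeing the data, 0.130%. The mean of contig means in busulfan dcat was 127 nt. No contig had 20 reads in all libraries of a comparison. The values that turned sign were not called in either setting and the cause was not tested. For reads, leaving out 1 library gave, on the log2 scale, -0.58 to 0.59 for L1Md_F3_dup2030 and -0.92 to 1.11 for Lx3B_dup3459 in wt, -0.81 to 2.27 for MLT1A1_dup1817 and -1.34 to 1.73 for MURVY-LTR_dup1698 in dcat, and for MLT1G3_dup736 -0.70 to 3.14 between genotypes after busulfan and -0.61 to 3.23 in the interaction. For tails it gave -31.8 to 5.43 nt (wt) and -19.4 to 1.27 nt (genotypes after busulfan) for Lx3B_dup3459, -30.3 to 16.7 nt for L1MD2_dup745 and -18.5 to 10.04 nt for MLT1G3_dup736 (genotypes after vehicle). Centring gave 10.004 nt for Lx3B_dup3459 in wt, and medians 6.96 nt for L1MD2_dup745.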
